A study of Mus musculus with 8 samples.

Results

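Cpt1a, Cpt2, Acadm, Acadl and Ehhadh are enzymes that carry fatty acids into mitochondria or begin their breakdown there and in peroxisomes. Their transcripts were followed across 4 groups of mouse colon. Every probe set annotated to 1 of these 5 genes was taken, which gave 6 probe sets of 12422 on the array (Affymetrix MG_U74Av2, on which a probe set is a group of short probes that together report a transcript). For each of the 5 genes 1 probe set passed the filter on low values and was among the 7453 tested. Ketone body synthesis is a neighbouring pathway, but none of the 5 genes encodes an enzyme of it, so the genes are called fatty acid oxidation enzymes here.

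The study measured total RNA of the whole colon, which contains epithelium, muscle and immune cells. C57BL/6J and C3H/HeJBir mice were used, either wild type or of the matching line that carries the targeted interleukin 10 allele Il10tm1Cgn, called Il10-null below. Each of the 4 groups held 2 pools, numbered sample 1 and sample 2 and labelled as independent, with 7 µg of RNA from each animal. Pools came from 5 animals in both C57BL/6J groups and in 1 C3H/HeJBir Il10-null pool (sample 1), and from 4 animals otherwise. An age of 4 weeks is given for the sample 2 C57BL/6J wild-type pool alone, and sex is not given. The design asks how loss of interleukin 10, a cytokine that restrains intestinal inflammation, changes colon transcripts in each strain and how the strains differ. The allele is carried by every cell of the body, so no cell type can be assigned to a change, and in whole-tissue RNA fewer cells of a type and less RNA per cell cannot be told apart.

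Long-chain fatty acids enter mitochondria bound to carnitine. Cpt1a forms the acylcarnitine at the outer membrane and is the controlled step of entry, and Cpt2 returns the acyl group to coenzyme A inside. Acyl-CoA dehydrogenases then start each round of beta-oxidation, Acadm on medium and Acadl on long chains, whereas Ehhadh carries both middle steps of the peroxisomal pathway in 1 protein. Colonocytes are known for burning butyrate, a short-chain fatty acid made by bacteria, and the nuclear receptor PPAR alpha is known to drive transcription of these genes in several tissues.

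PPAR binds with its partner RXR to direct repeats of a hexamer close to AGGTCA, so the 250 bases before each RefSeq transcription start (assembly GRCm38.p6) were read for that hexamer on both strands. All 5 genes had an entry. One match each was found before Cpt1a and Acadm, and 0 before Cpt2, Acadl and Ehhadh. These 2 windows are shown because they hold the match, with the hexamer in capitals as it reads on the gene's strand (TGACCT). The Cpt1a window is chr19:3323051-3323300, plus strand, with the match 94 bases before the start. The Acadm window is chr3:153944644-153944893, minus strand, with the match 249 bases before the start.
Cpt1a: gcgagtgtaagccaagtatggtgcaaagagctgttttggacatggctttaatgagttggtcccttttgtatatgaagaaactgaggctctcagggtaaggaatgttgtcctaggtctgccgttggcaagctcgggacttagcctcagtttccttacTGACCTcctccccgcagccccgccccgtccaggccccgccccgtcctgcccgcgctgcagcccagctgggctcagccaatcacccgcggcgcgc
Acadm: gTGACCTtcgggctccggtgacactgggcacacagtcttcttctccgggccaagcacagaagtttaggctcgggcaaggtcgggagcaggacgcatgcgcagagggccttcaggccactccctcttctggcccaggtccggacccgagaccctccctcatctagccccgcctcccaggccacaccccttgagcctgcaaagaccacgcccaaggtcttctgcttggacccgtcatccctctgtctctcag
The hexamer alone occurred in 14.0% of 32851 promoter windows of this length, so a match is common. A direct repeat of the looser hexamer AGGNCA with 1 base between the copies, which contains the AGGTCA form, occurred in 0.338% of windows and in 0 of the 5 here. A match is a run of letters and not a measured binding site.

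The intensities are linear values that the authors deposited already scaled, and the arrays' means after trimming 2% lay within 1.01-fold of each other. Within sample 1 both Il10-null pools were hybridised on 1 day and both wild-type pools on another, and the sample 2 pools together on a later day. Genotype and day therefore cannot be told apart in any difference between Il10-null and wild-type pools of sample 1. The strains of 1 genotype shared a day there. Xist, which is transcribed from the inactive X chromosome, lay between 243 and 452 in sample 1 and between 2.84 and 12.9 in sample 2. Sample number, hybridisation day and this Xist difference therefore move together and cannot be told apart. Eif2s3y, a gene of the Y chromosome, read 39.65 and 113 in the sample 1 C57BL/6J wild-type and Il10-null pools. It read 318 and 242 in the sample 1 C3H/HeJBir wild-type and Il10-null pools, and 256 to 411 in sample 2. The sample 1 pools thus differed in this transcript between strains and genotypes too. One array, that of C3H/HeJBir Il10-null sample 1, stood apart, with a mean Spearman correlation of 0.915 with the other pools against 0.931 to 0.945 for those. Il10 itself read 5.43 to 10.9 in wild-type and 22.0 to 51.7 in Il10-null pools. The sources used here do not say whether its probes lie in the targeted part, so it is no check of the labels. Colon markers were high in every pool, with summed intensities of 26941 to 32520 for the absorptive colonocyte genes and 31769 to 39035 for the goblet cell genes. The hepatocyte marker albumin (Alb), which would mark a tissue rich in these enzymes, read 11.8 to 48.1. The 5 hepatocyte markers on the array, Alb included, summed to 73.0 to 171, and 1 of them, Ttr, passed the filter.

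None of the 5 enzymes rose or fell in any of the 7 comparisons by limma, with Benjamini-Hochberg adjusted p between 0.997 and 1.00 (threshold 0.05). The smallest unadjusted p among these 35 values was 0.256, and 0.21 by limma with the sample number as a block. Few transcripts of any kind passed. The share of the 7453 tested probe sets called was 0% for the Il10 effect in C57BL/6J, 0.0134% for that in C3H/HeJBir, 0% for the difference between these effects, 0.403% for the strain effect in wild type, 0.295% for that in Il10-null, 0% for the average Il10 effect and 1.11% for the average strain effect. At an unadjusted p under 0.05 the counts without a call were 118, 112 and 230 probe sets for the Il10 effect in C57BL/6J, the difference and the average Il10 effect. The intervals below give the sizes of change that the fit of group means could have missed with 8 pools. With the sample number as a block they were narrower for each enzyme, as given below for the average Il10 effect.

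Cpt1a, the entry step, gave intensities of 1368 and 1481 in the sample 1 and sample 2 C57BL/6J wild-type pools and 1588 and 1611 in the Il10-null pools of that strain. In C3H/HeJBir it read 1656 and 1287 in wild type and 1098 and 1567 in Il10-null. Both C57BL/6J Il10-null pools thus lay above both wild-type pools, while the C3H/HeJBir groups overlapped. Group means were 1424 ± 79.7 (SD, n = 2) and 1599 ± 16.3 in C57BL/6J, and 1472 ± 260.4 and 1332 ± 331.5 in C3H/HeJBir. On the log2 scale the Il10 effect, Il10-null minus wild type, was 0.17 ± 0.26 (SE) in C57BL/6J, with a 95% interval of −0.43 to 0.76. It was −0.15 ± 0.26 in C3H/HeJBir, with an interval of −0.75 to 0.44. The C3H/HeJBir value was −0.59 between the sample 1 pools and 0.28 between the sample 2 pools. It turned to 0.10 without the Il10-null pool of sample 1 and to 0.03 without the wild-type pool of sample 1, the highest of all 8. The strain effect, C3H/HeJBir minus C57BL/6J, was 0.04 for wild type and −0.28 ± 0.26 for Il10-null. In Il10-null mice both C3H/HeJBir pools lay below both C57BL/6J pools.

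Cpt2, which completes the transfer inside the mitochondrion, was read by 2 probe sets. The tested one gave 935 and 1196 in C57BL/6J wild type, 1020 and 958 in C57BL/6J Il10-null, 780 and 1161 in C3H/HeJBir wild type and 886 and 1091 in C3H/HeJBir Il10-null. The pools overlapped in all 4 pairs of groups. The Il10 effect was −0.10 ± 0.27 (95% interval −0.73 to 0.53) in C57BL/6J and 0.05 ± 0.27 (−0.58 to 0.68) in C3H/HeJBir. Strain effects were −0.15 for wild type and −0.01 for Il10-null. The second probe set of the gene read 2.17 and 1.14, 1.04 and 1.88, 7.31 and 0.38, and 0.53 and 1.46 in the same order of groups. With a mean of 1.99 it lay below the filter and carries no information on a change.

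Acadm, the medium-chain dehydrogenase, had almost equal group means and the widest spread within groups. It read 1158 and 1427 in C57BL/6J wild type, 1097 and 1463 in C57BL/6J Il10-null, 900 and 1661 in C3H/HeJBir wild type, and 772 and 1815 in C3H/HeJBir Il10-null. The sample 2 pool was the higher in every group. The means were 1293 ± 190.3 (SD, n = 2), 1280 ± 258.4, 1281 ± 538.1 and 1294 ± 737.3 in that order. The Il10 effect was −0.02 ± 0.44 in C57BL/6J, while C3H/HeJBir gave −0.05 ± 0.44, and its 95% interval in C57BL/6J, −1.03 to 0.99, spans folds of 0.488 to 1.99. With the sample number as a block, since the numbers pair the pools, it was −0.66 to 0.62, or folds of 0.634 to 1.53. Within sample 2 alone, hybridised on 1 day, Acadm differed between Il10-null and wild type by 0.04 in C57BL/6J (−0.08 within sample 1) and by 0.13 in C3H/HeJBir (−0.22 within sample 1).

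Acadl, the long-chain dehydrogenase, is encoded on chromosome 1, as is Il10. It read 162 and 135 in C57BL/6J wild type, 147 and 214 in C57BL/6J Il10-null, 110 and 191 in C3H/HeJBir wild type, and 128 and 142 in C3H/HeJBir Il10-null. The 2 C3H/HeJBir Il10-null pools lay just below the 2 C57BL/6J Il10-null pools, and every other pair of groups overlapped. The Il10 effect was 0.25 ± 0.31 (95% interval −0.46 to 0.96) in C57BL/6J and −0.10 ± 0.31 (−0.81 to 0.61) in C3H/HeJBir. The strain effect in Il10-null was −0.37 ± 0.31, with an interval of −1.08 to 0.34. In wild type it was −0.02 ± 0.31.

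Ehhadh, the peroxisomal enzyme, lay nearest the filter, which was a mean intensity of 37.0. It read 46.8 and 52.4 in C57BL/6J wild type, 62.3 and 54.0 in C57BL/6J Il10-null, 58.0 and 55.2 in C3H/HeJBir wild type, and 34.2 and 58.9 in C3H/HeJBir Il10-null. The sample 1 C3H/HeJBir Il10-null pool was the lowest of the 8. The Il10 effect was 0.19 ± 0.26 (95% interval −0.42 to 0.79) in C57BL/6J and −0.27 ± 0.26 (−0.87 to 0.34) in C3H/HeJBir. The difference between these effects was −0.45 ± 0.37, with an interval of −1.31 to 0.40. It had the smallest unadjusted p of the 5 enzymes in the fit of group means. With the sample number as a block its limma p was 0.23, above the 0.21 of Acadl for the strain effect in Il10-null. In C3H/HeJBir the Il10 effect was −0.61 between the sample 1 pools and 0.08 between the sample 2 pools.

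**Figure D1:**
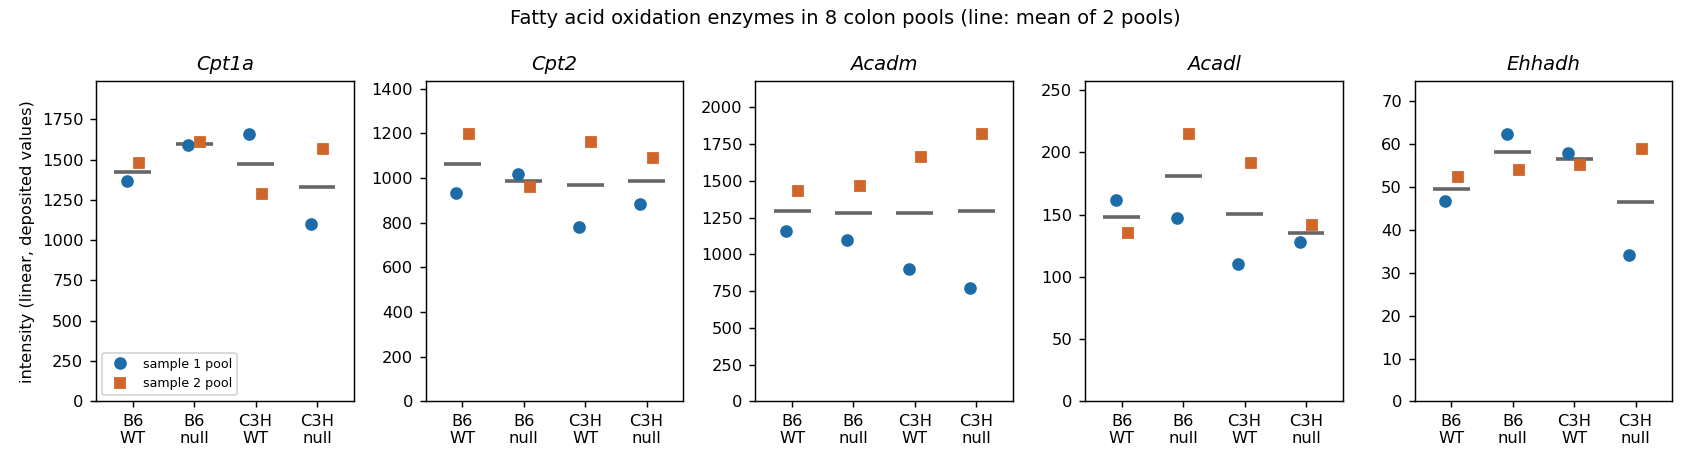
Deposited intensity (linear, vertical axis from 0) of the tested probe set of each enzyme in the 4 groups, with B6 for C57BL/6J, C3H for C3H/HeJBir and null for Il10-null; circles are sample 1 pools, squares sample 2 pools and lines the mean of 2 pools. The sample 2 pool of Acadm lay above the sample 1 pool in all 4 groups, and the lowest Cpt1a, Acadm and Ehhadh values were those of the sample 1 C3H/HeJBir Il10-null pool.

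Both Il10-null pools lay above both wild-type pools in C57BL/6J for Cpt1a and Ehhadh, 2 of 5 enzymes, where 12.6% of tested probe sets did so. Ehhadh was also the 1 enzyme with both C3H/HeJBir wild-type pools above the C57BL/6J ones, against 14.0% of probe sets. For Cpt1a and Acadl both C3H/HeJBir Il10-null pools were lower than either C57BL/6J one, against 15.3%. With 5 genes these counts are descriptions. All 5 log2 differences were negative for the strain effect in Il10-null, with a median of −0.28 beside −0.02 over all tested probe sets. Without the sample 1 C3H/HeJBir Il10-null pool 3 of the 5 were positive, with a median of 0.02. That comparison and the Il10 effect in C3H/HeJBir share the same Il10-null pools. For the average Il10 effect the enzymes ranged from −0.04 for Ehhadh to 0.07 for Acadl. As folds, the 95% intervals of this average were 0.751 to 1.34 for Cpt1a, 0.722 to 1.34 for Cpt2, 0.743 to 1.49 for Acadl, 0.724 to 1.31 for Ehhadh and, widest, 0.595 to 1.61 for Acadm. With the sample number as a block they were 0.756 to 1.335, 0.763 to 1.267, 0.769 to 1.44, 0.734 to 1.292 and 0.715 to 1.336 in the same order. Leaving out a single pool turned the sign of at least 1 Il10 or strain effect of each enzyme.

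**Figure D2:**
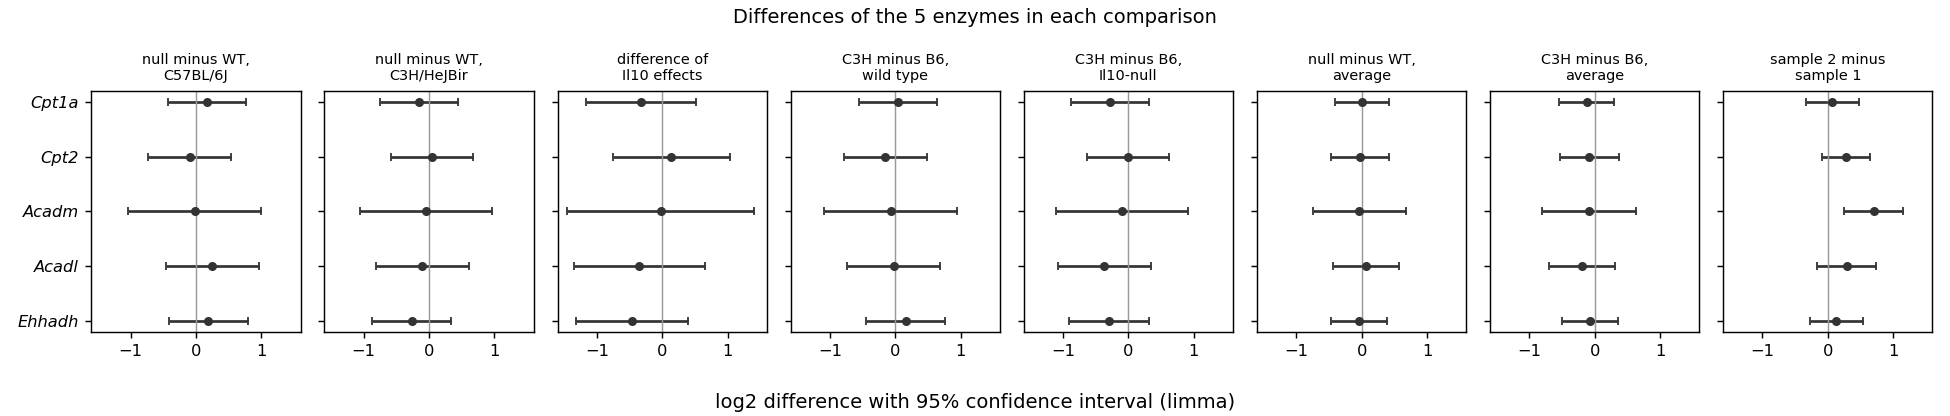
Log2 difference (point) and 95% confidence interval (bar) of each enzyme in the 7 comparisons and between sample 2 and sample 1, from limma; the vertical line is 0. Every interval of the 7 group comparisons includes 0, and the interval of Acadm between sample 2 and sample 1 runs from 0.25 to 1.15.

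The largest log2 difference of any of the enzymes was that of Acadm between sample numbers. This comparison was added after the values were seen, with the groups held as terms in the model. Acadm was 0.70 ± 0.19 higher on the log2 scale in sample 2, or 1.63-fold (95% interval 1.19 to 2.22). All 4 sample 2 pools (1427 to 1815) lay above all 4 sample 1 pools (772 to 1158), a separation seen upward in 5.86% of tested probe sets. The limma adjusted p was 0.140, unadjusted 0.00823, so the difference did not pass. In this comparison 1552 of the 7453 tested probe sets (20.8%) had an unadjusted limma p under 0.05. The differences of the other enzymes were 0.29 for Acadl, 0.28 for Cpt2, 0.13 for Ehhadh and 0.07 for Cpt1a, all positive, and 0 of 5 passed where 0.148% of probe sets did. Over all tested probe sets the median was −0.06. When arrays were quantile normalised Cpt1a turned to −0.05 and the others stayed positive. When arrays were scaled to a common median the median of all tested probe sets moved to 0.14, and that of the 5 enzymes to 0.49.

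The other genes of fatty acid oxidation were read from lists of the carnitine shuttle, fatty acid uptake and activation, mitochondrial beta-oxidation, peroxisomal beta-oxidation, and ketogenesis and ketolysis. Together these held 72 genes, the 5 enzymes included, of which 50 had a probe set and 44 were tested. None of the 44 passed in any comparison by limma. In the average Il10 effect 31 of 44 were negative, with a median of −0.08 beside −0.01 over all tested probe sets. In the strain effect in Il10-null 33 of 44 were negative, with a median of −0.11 beside −0.02. Neither majority held without the C3H/HeJBir Il10-null pool of sample 1, when 22 of 44 (median 0.02) and 18 of 44 (median 0.06) were negative.

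Most mitochondrial beta-oxidation genes had negative Il10 effects, none of which passed. In C57BL/6J 14 of 15 tested genes were negative (median −0.11), and in C3H/HeJBir 11 of 15 (median −0.16). Over all tested probe sets 48.9% and 48.5% were positive, with medians of −0.005 and −0.009. Genes read in the same pools are not independent, so the counts are descriptions. Without the sample 1 C3H/HeJBir Il10-null pool the C3H/HeJBir count turned to 10 of 15 positive (median 0.10). Within the C57BL/6J pools 15 of 15 genes were negative between the sample 1 pools and 11 of 15 between the sample 2 pools, and in sample 1 the genotypes also differ in hybridisation day. The largest difference in the list belonged to Pccb, a subunit of the carboxylase that takes up propionyl-CoA, the product of odd-chain oxidation. Pccb read 258 and 170 in C57BL/6J wild type, 216 and 177 in C57BL/6J Il10-null, 121 and 71.4 in C3H/HeJBir wild type, and 108 and 85.1 in C3H/HeJBir Il10-null. All 4 C3H/HeJBir pools lay below all 4 C57BL/6J pools, as for 3.81% of tested probe sets, with a strain effect of −1.08 ± 0.32 in wild type (limma adjusted p 0.437) and −1.02 ± 0.22 on average (adjusted p 0.104). Mcee, which acts after that carboxylase, had a strain effect of −0.48 ± 0.30 in Il10-null. Pccb and Mcee thus handle a product of oxidation and are not enzymes of the beta-oxidation rounds themselves.

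The peroxisomal list, in which Ehhadh stands beside the enzymes of bile acid side-chain and branched-chain oxidation, had a median Il10 effect of −0.26 in C3H/HeJBir, with 11 of 13 genes negative, and −0.07 in C57BL/6J, with 8 of 13 negative. Here too the C3H/HeJBir count turned when the sample 1 Il10-null pool was left out, to 8 of 13 positive with a median of 0.06. Its largest values belonged to the difference between the Il10 effects, −1.02 ± 0.68 for catalase (Cat), which removes the hydrogen peroxide that peroxisomal oxidation makes, and −0.92 ± 0.49 for Amacr, a racemase of branched-chain acyl-CoA. The second Cat probe set gave −0.18.

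Of the 4 tested partners of Cpt1a and Cpt2 in the carnitine shuttle, 2 had a positive Il10 effect in C57BL/6J and 3 in C3H/HeJBir. The carnitine acetyltransferase Crat had Il10 effects of 0.16 and 0.09 in these strains, and Slc25a20, which exchanges acylcarnitine across the inner membrane, −0.01 and 0.07. Slc22a5, a carnitine importer, had a difference between the Il10 effects of 0.86 ± 0.52, and its relative Slc22a21 one of −0.64 ± 0.59. In fatty acid uptake and activation Acsl4, an acyl-CoA synthetase that prefers arachidonate, had an Il10 effect of 0.78 ± 0.31 in C3H/HeJBir, and Slc27a1, a fatty acid transporter, one of 0.57 ± 0.42 in C57BL/6J. Of the ketone body list only Oxct1, which starts ketone use, and Slc16a1, a carrier of lactate, butyrate and ketone bodies, were tested among 7 genes. Oxct1 read 497 to 588 over the 8 pools and its 4 single-group differences ran from −0.10 to 0.00. Slc16a1 had an Il10 effect of −0.43 ± 0.23 in C3H/HeJBir. Adjusted p was 0.999 or 1.00 for each difference given here for these 8 genes.

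Genes on the regulatory side did not pass either. Of PPAR and its coactivators 8 were tested, with medians of 0.04 and −0.06 for the Il10 effect in C57BL/6J and C3H/HeJBir, and the largest values were differences between the Il10 effects of 0.88 ± 0.63 for Rxrb, a partner receptor, and −0.75 ± 0.63 for Nrip1, a corepressor. Other known PPAR targets were negative for 7 of 7 tested genes in C57BL/6J Il10-null colon (median −0.30), and for 5 of 7 in C3H/HeJBir (median −0.10). Over all tested probe sets 48.9% and 48.5% were positive. In C57BL/6J 4 of these 7 targets were negative between the sample 1 pools and 7 of 7 between the sample 2 pools. In the same comparison 4 of 4 adipocyte markers (median −0.32) and 7 of 8 smooth muscle markers (median −0.23) were negative. So were 3 of 3 skeletal muscle markers (median −0.51). Between the sample 1 pools 2 of 4, 5 of 8 and 3 of 3 were negative in that order. Between the sample 2 pools 4 of 4, 8 of 8 and 2 of 3 were. The part of these markers in the values of the PPAR targets was not tested. Pdk4, which holds glucose carbon back from the citrate cycle when fat is burned, had a strain effect of −0.67 ± 0.28 in wild type (limma adjusted p 0.839), and Ucp3, a mitochondrial carrier, a difference between the Il10 effects of 0.68 ± 0.48. The respiratory chain and citrate cycle list, which takes up the electrons and acetyl groups made by oxidation, stayed near 0, with medians of −0.05 (C57BL/6J) and 0.05 (C3H/HeJBir) over 28 genes. Its largest values were differences between the Il10 effects of 0.65 ± 0.36 for Idh3a and 0.47 ± 0.36 for Ndufb7.

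**Figure D3:**
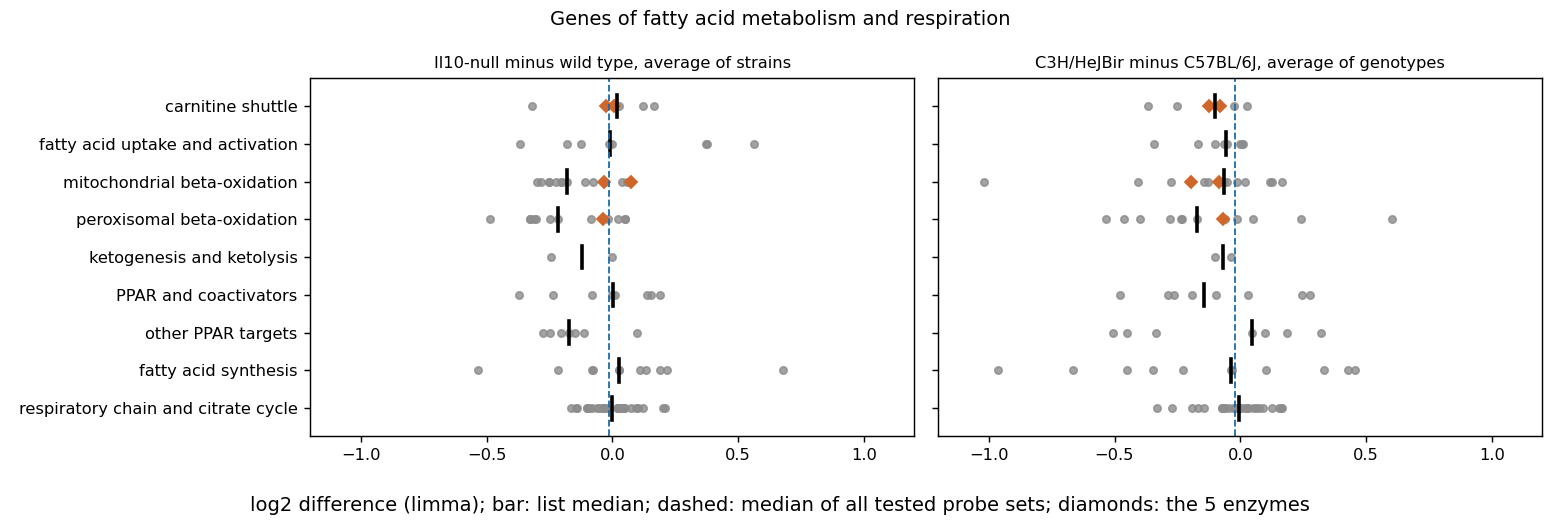
Average Il10 and average strain log2 differences (horizontal axis, limma) of each tested gene in 9 lists; diamonds are Cpt1a, Cpt2, Acadm, Acadl and Ehhadh, bars list medians and the dashed line the median of all tested probe sets. The medians of mitochondrial and peroxisomal beta-oxidation lie at −0.18 and −0.22 for the Il10 difference (−0.05 and 0.03 without the C3H/HeJBir Il10-null pool of sample 1) and Pccb is the leftmost point of the strain difference, while none of the points passed the test.

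The sign of most pathway genes between sample numbers was that of Acadm, though none passed. Of the 44 tested pathway genes 35 were higher in sample 2, with a median of 0.21 against −0.06 over all tested probe sets. Without the C3H/HeJBir Il10-null pool of sample 1 the count was 30 of 44, with a median of 0.10. By list the counts were 5 of 6 for the carnitine shuttle (median 0.36), 13 of 15 for mitochondrial beta-oxidation (0.22), 10 of 13 for peroxisomal beta-oxidation (0.31), 5 of 8 for fatty acid uptake and activation (0.05) and 2 of 2 for ketogenesis and ketolysis (0.07). The fatty acid synthesis list lay the other way, with 8 of 11 genes lower in sample 2 and a median of −0.25. Scd1, which desaturates newly made fatty acids, ranged from 328 to 567 in sample 1 and from 149 to 361 in sample 2, a log2 difference of −1.06 ± 0.20 (limma adjusted p 0.109). Thrsp, a protein that promotes lipogenesis, read 68.3 to 171 in sample 1 and 11.9 to 54.6 in sample 2, a difference of −1.49 ± 0.22 (adjusted p 0.0815). Both were named for their strain effects in Il10-null, −0.99 ± 0.60 and −1.19 ± 0.80, and the dimmest of 3 Scd1 probe sets differed by 0.10 between sample numbers. With arrays scaled to a common median the fatty acid synthesis median moved to −0.04, whereas those of the carnitine shuttle and both beta-oxidation lists were 0.43 or above. That scaling also raised the median of all tested probe sets from −0.06 to the positive value given above, so part of each shift is shared by the array. Without the sample 1 C3H/HeJBir Il10-null pool the medians were 0.23 for the carnitine shuttle, 0.13 for mitochondrial and 0.08 for peroxisomal beta-oxidation.

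**Figure D4:**
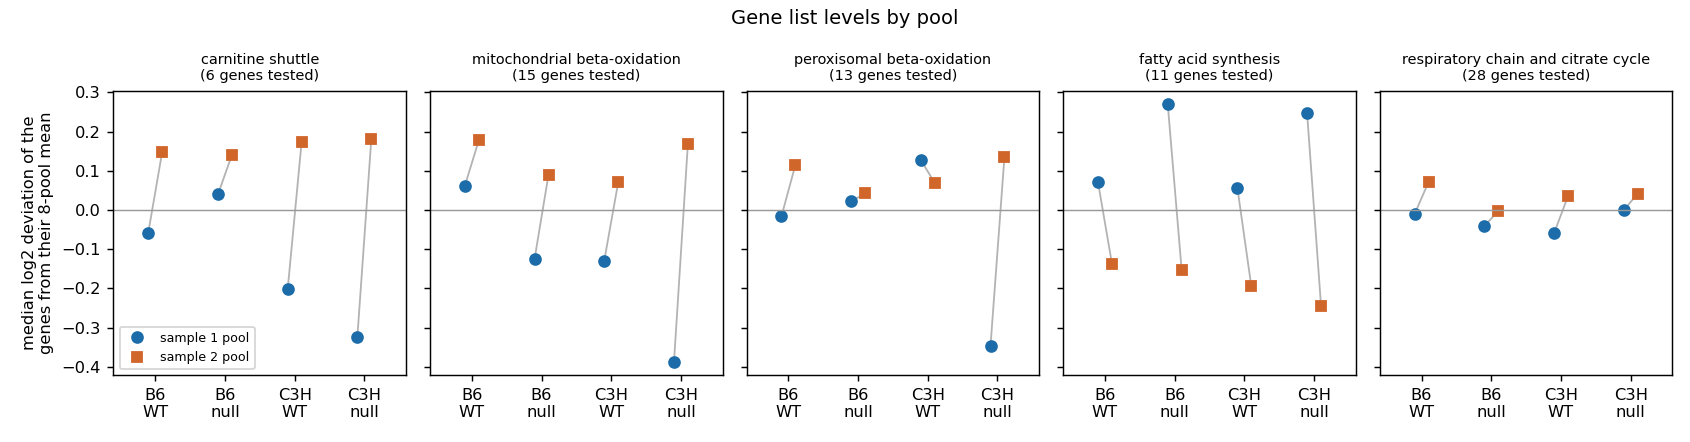
Median log2 deviation of the tested genes of 5 lists from their mean over the 8 pools (vertical axis), by group; circles are sample 1 pools, squares sample 2 pools, and grey lines join the pools of a group. In the carnitine shuttle and mitochondrial beta-oxidation the sample 2 pool was the higher in each of the 4 groups, in fatty acid synthesis the lower, and the sample 1 C3H/HeJBir Il10-null pool was lowest for both beta-oxidation lists at −0.39 and −0.35.

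Markers of other cell types moved with the same pools. The C3H/HeJBir Il10-null pool of sample 1 had the lowest level of the 8 smooth muscle markers, summed at 9003 against 10631 to 15440 in the other pools, and the highest of the exocrine pancreas markers, 4305 against 1245 to 3128. By sum it was also highest for the macrophage markers, 4586 against 750 to 2874, the neutrophil markers, 869 against 224 to 394, and the T and NK cell markers, 295 against 148 to 249. Macrophage sums were 750 to 1008.5 in the C57BL/6J pools and 2281 to 2874 in the other C3H/HeJBir pools. The brightest gene weighs most in a sum. Between the sample 1 C3H/HeJBir pools, Il10-null minus wild type, 2 of 3 tested neutrophil and 2 of 4 tested macrophage markers were negative. Of the 5 tested exocrine pancreas markers 2 were negative there and 3 positive. The goblet cell markers of the C3H/HeJBir Il10-null pool of sample 1 were lowest, 31769 against 35001 to 39035, and its colonocyte markers, at 31037, lay inside the range of the rest. The 6 of 8 adipocyte markers on the array summed to between 327 and 529 in sample 1 and between 256 and 445 in sample 2. For Il10-null minus wild type in C3H/HeJBir, 3 of 3 tested skeletal muscle markers were negative in sample 1 (median −1.57). In sample 2 all 3 were positive (median 0.97). The 8 smooth muscle markers turned likewise, with medians of −0.60 and 0.45. Between sample numbers 5 of 5 exocrine pancreas markers were lower in sample 2 (median −1.06), as were both tested T and NK cell markers (median −0.42). Their part in the differences of the enzymes was not tested.

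The 5 enzymes did not vary as 1 block over the 8 pools. As a description, Pearson's r of the log2 values was 0.86 between Cpt1a and Ehhadh and 0.78 between Acadm and Cpt2, but 0.00 between Cpt1a and Acadl and −0.04 between Cpt1a and Cpt2. These pools share groups, sample numbers and hybridisation days. Among 6727 compared probe sets of other genes, Zfr (0.97) and Stk38 (0.97) varied most like Acadm, Wfs1 (0.94) and Bmp5 (0.92) like Cpt1a, and Brd7 (0.95) and Ifngr2 (0.94) like Cpt2. Nckap1 (0.96) and Mknk2 (0.92) came nearest to Acadl, and Nptn (0.97) and Mettl9 (0.96) to Ehhadh. With 8 points and 6727 candidates these are the top of a long list.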

How the data were processed

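Intensity values of 12422 probe sets, deposited by the authors on a linear scale, were read for 8 pools, with Affymetrix control probe sets left out. Not given in the sources used here are the summary algorithm, background correction, detection calls and genome build. Depth has no meaning on arrays, and 2 pools a group limit the precision. Gene symbols came from the platform annotation, matched to RefSeq (10817 of 10833 probe sets with 1 symbol; 396 had several and 1193 none). Values were analysed as log2(intensity + 11.07), the 20th percentile, over the 7453 probe sets with a mean of at least 37.0, the 40th percentile. Fold changes are on that scale and understate those of low genes. A model of 4 group means was fitted in limma 3.58.1 (R 4.3.3; 4 residual and 4.23 prior degrees of freedom), two-sided, adjusted by Benjamini-Hochberg over all tested probe sets at 0.05. It was tested on simulated data. P values of the fit of group means measure the spread between the 2 pools of a group, which includes the difference between sample numbers. The sample 2 minus sample 1 comparison added the sample number as a term.

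The enzymes, gene lists and tests were chosen with earlier results of these data known. Where several probe sets named a gene, the brightest by mean stood for it in the lists. In each pathway list the genes that passed, or else the 2 with the largest difference, were named. Chromosomes are RefSeq's. Same-numbered pools deviated together from their group means (r 0.198 to 0.332 over 6 pairs of groups), so the numbers pair the pools. Alternatives covered pseudocount, filter, normalization, moderation, replicate and day blocks, threshold, averaging per gene and leaving out each pool.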

Additional observations from a re-analysis of the deposited data

How the results depend on the processing

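The count of the 5 enzymes called was 0 in every comparison under every alternative run. The replicate block gave 0, 1, 0, 31, 23, 0 and 96 probe sets in the 7 comparisons and changed no call of an enzyme. Of 722 alternative values for single enzymes 652 kept their direction and 70 turned, and 0 crossed the threshold.

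Probe set counts moved as follows. For the Il10 effect in C57BL/6J 1 was called with the 50th percentile as pseudocount, the 60th percentile filter, or trend and robust moderation. For that in C3H/HeJBir 0 were called with the 5th percentile pseudocount, no filter, median scaling, the day block, averaging per gene, or only the groups compared, and 0 to 7 leaving out a pool. For the strain effect in wild type the counts were 46 at a threshold of 0.1, 53 with the high pseudocount, 51 with robust moderation, 49 with only the groups compared, and 2 to 39 leaving out a pool. In Il10-null they were 44, 45 and 45 for the first 3 of these, 13 with only the groups compared, 14 without filter, 14 per gene, 6 with the day block, and 4 to 34 leaving out a pool. Leaving out a pool gave 0 to 11 for the average Il10 effect and 36 to 111 for the average strain effect. Between sample numbers 0 (low pseudocount), 80 (high pseudocount), 1 (no filter), 61 (60th percentile filter), 26 (median scaling), 106 (robust) and 0 to 1 leaving out a pool were called.

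Directions turned with the day block for the Il10 effect of Acadm (0.0934 in C57BL/6J, 0.069 in C3H/HeJBir, 0.0812 on average), of Cpt1a (0.0405) and Cpt2 (-0.132) in C3H/HeJBir, and of Ehhadh on average (0.0571). Quantile normalization turned Acadm in C57BL/6J (0.0078), Cpt1a for strain in wild type (-0.00219) and Cpt1a between sample numbers (-0.0466). Median scaling turned Acadl for strain in wild type (0.0313), Cpt2 for strain in Il10-null (0.0321) and Cpt1a on average for Il10 (-0.000192).

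Ranges over the pools left out, in log2, were these where a sign turned. Il10 in C57BL/6J gave Acadm -0.226 to 0.185, Acadl -0.00752 to 0.504 and Cpt2 -0.272 to 0.08. Il10 in C3H/HeJBir gave Acadm -0.656 to 0.565, Cpt1a -0.408 to 0.101, Acadl -0.47 to 0.267, Cpt2 -0.237 to 0.33 and Ehhadh -0.58 to 0.0479. Their difference gave Acadm -0.635 to 0.586, Acadl -0.718 to 0.0187 and Cpt2 -0.142 to 0.426. Strain in wild type gave Acadm -0.509 to 0.367, Cpt1a -0.143 to 0.217, Acadl -0.389 to 0.348 and Cpt2 -0.434 to 0.133. Strain in Il10-null gave Acadm -0.706 to 0.515, Cpt2 -0.156 to 0.14 and Ehhadh -0.61 to 0.0171. Average Il10 gave Acadm -0.338 to 0.272, Cpt1a -0.12 to 0.134, Acadl -0.111 to 0.258, Cpt2 -0.167 to 0.117 and Ehhadh -0.195 to 0.119. Average strain gave Acadm -0.389 to 0.222, Cpt1a -0.251 to 0.00349, Cpt2 -0.221 to 0.0626 and Ehhadh -0.226 to 0.0877. Sample number gave Cpt1a -0.0754 to 0.214 and Ehhadh -0.0339 to 0.233, while Acadm kept its direction at 0.529 to 0.915 over all its alternatives (adjusted p 0.0629 to 0.319). Without a turn, the strain effect in Il10-null of Cpt1a ran from -0.538 to -0.0297 and of Acadl from -0.627 to -0.115, the difference of the Il10 effects of Cpt1a from -0.575 to -0.0663 and of Ehhadh from -0.769 to -0.141, and the average strain effect of Acadl from -0.38 to -0.0115. With the day block the average Il10 effect comes from the sample 2 pools alone, because day and genotype coincide in sample 1. The cause of the other turns was not tested. Leaving out a pool leaves its group with 1, assumed to vary like the others.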
